A study of Mus musculus with 12 samples.

Results

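The genes examined were 10 that act in the entry of glucose into muscle fibres or in insulin signalling, namely Slc2a4, Slc2a1, Tbc1d1, Tbc1d4, Hk2, Txnip, Insr, Irs1, Irs2 and Grb10. They were chosen by name, for their known roles and with earlier results of these data known, and all 10 were found among the 10187 genes of the table. Of these, 9 passed the filter on low values and were among the 7247 genes tested, and Slc2a1 fell below it.

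Messenger RNA of the triceps brachii, a forelimb muscle, was sequenced in 12 male mice of the C57/BL6 strain, with genotype crossed with physical activity and 3 mice for each combination. Wild-type mice were either inactive (IW) or active (AW), and so were mice with reduced myostatin (IM and AM). Myostatin, encoded by Mstn, is a secreted protein that limits muscle growth. All 12 mice, wild-type included, ate chow containing 0.025% tamoxifen for 6 weeks. Tamoxifen switched on Cre recombinase, which lowered myostatin only in the mice that carried a floxed Mstn gene, so the loss was induced in adults and not present from birth. The promoter that drives Cre was not given in the sources used here. Active mice had a running wheel for 12 weeks from 6 months of age and lived alone. Inactive mice, of the same age, had no wheel, and the sampled genotypes were matched for running. Housing and running cannot be told apart in the activity comparison.

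Muscle takes up glucose mainly through GLUT4, a carrier that is held in vesicles inside the fibre and moved to the surface by insulin or by contraction. Insulin acts through its receptor, the IRS adaptor proteins, PI3-kinase and Akt. Akt, and in contracting muscle AMPK, phosphorylate TBC1D4 and TBC1D1, GTPase-activating proteins that otherwise hold the Rab proteins of GLUT4 vesicles inactive, and hexokinase then traps the glucose as glucose-6-phosphate.

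The estimated depth was 9023439 to 12184181 reads per mouse. Mstn, the targeted gene, had normalized read counts of 79.7 to 138 in the 6 wild-type mice and 8.70 to 21.6 in the 6 myostatin-reduced mice, without overlap, a mean 84.9% lower (limma, log2 change -2.66, adjusted p = 1.29e-06). The 10 fast-fibre markers summed to 154915 to 234174 normalized reads in every mouse, and Adipoq, a defining adipocyte marker, was at 3.19 to 12.6. Slow-fibre content differed widely between mice. The 11 slow-fibre markers summed to 78.3 to 112 in IM, 94.3 to 1370 in IW, 151 to 1831 in AW and 117 to 1343 in AM, so the 3 IM mice were all low while each other group held low and high mice. The 8 endothelial markers summed to 307 to 398 in IW and 313 to 532 in AW, which overlapped, and to 272 to 288 in IM and 364 to 602 in AM, which did not. All 8 had a positive log2 change with activity, and 7 of them were called (limma, adjusted p under 0.05). The 4 adipocyte markers found in the table summed to no more than 74.6 in any mouse. Alas2, the only erythroid marker found, was between 2.11 and 7.19. The 6 macrophage markers found summed to 57.1 to 101, the 6 fibroblast markers to 451 to 698 and the 4 Schwann cell markers to 22.6 to 75.3.

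Per kilobase of exon the members spanned a wide range of levels. The exon lengths are from GENCODE, whereas the authors counted reads in RefSeq exons, so levels per kb and the order of near ones are approximate. Txnip, at a mean of 241 normalized reads per kb, and Slc2a4, at 220, were the highest and their ranges over the 12 mice overlapped. Hk2 followed at 92.3, apart from its neighbours on both sides. Tbc1d4 at 16.5, Insr at 14.0, Tbc1d1 at 12.1 and Irs1 at 11.2 formed a group in which each overlapped the next. Grb10 at 4.14, Irs2 at 2.93 and Slc2a1 at 2.80 were lowest, and each likewise overlapped the next. The counting error at the lowest mouse was 1.30% for Txnip and 12.6% for Slc2a1, so Slc2a1 and Irs2, at 11.4%, were the least precisely measured. These percentages cover counting error only.

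**Figure D1:**
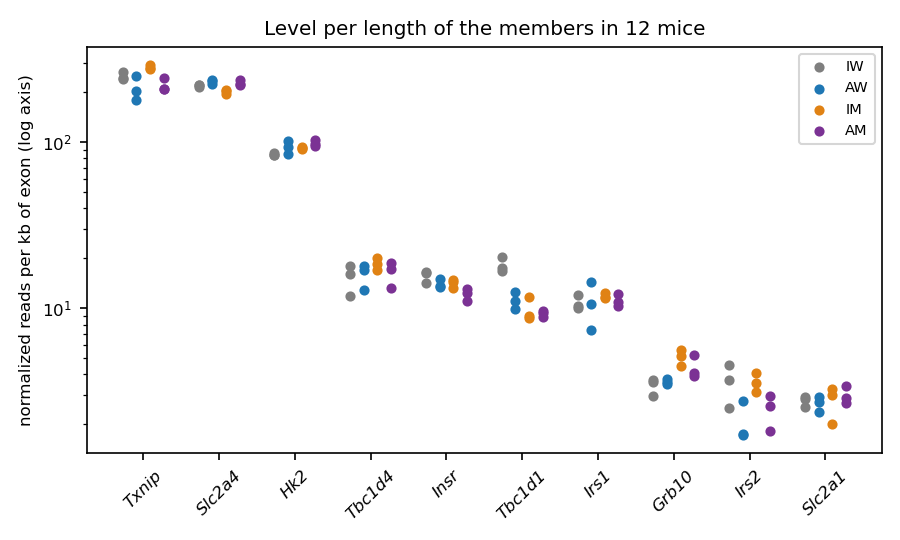
Level of each member in normalized reads per kb of exon, on a log axis, in the 12 mice (points, coloured by group), ordered by mean. Txnip and Slc2a4 stand above Hk2, and Grb10, Irs2 and Slc2a1 lie lowest.

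The first question was how physical activity, genotype and their interaction bore on these genes. With activity, 4 of the 9 tested members were called (limma, adjusted p under 0.05), all lower, against 14.5% of all tested genes called, 7.99% higher and 6.51% lower. They were Tbc1d1, Txnip, Insr and Irs2. The count fell to 1 without IM 2 or AW 3 and to 2 without IM 3, without AW 2 or with the slow-fibre score of each mouse as a covariate, and with 1 mouse left out 552 to 1485 genes were called in all, the 1051 of all mice falling most without AW 3 (552), IW 2 (582), AW 2 (596), AM 2 (609) and IM 3 (655). With the myostatin-reduced genotype, 2 of 9 were called, Grb10 higher and Tbc1d1 lower, against 5.78% of all genes, 3.57% higher and 2.21% lower. Those 419 genes fell to 180 without AW 3, 203 without IW 1 or IM 3, 214 without IM 1, 227 without AW 2 and 245 without AM 3, while the 2 members were called in each case. In the interaction limma called 0 members and 0% of genes at the adjusted threshold, while 4.10% of genes had an unadjusted p under 0.05. Of the members Tbc1d1 alone did so. The median log2 change over the 9 tested members was -0.08 with activity and 0.11 with genotype, beside -0.02 and -0.0049 over all tested genes. A member is a bulk value, so fewer cells of a type and less RNA per cell cannot be told apart. The p-values measure the spread between these mice, which the labels do not describe further. Where groups are said not to overlap, the share of all tested genes doing so was counted only where it is printed.

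**Figure D2:**
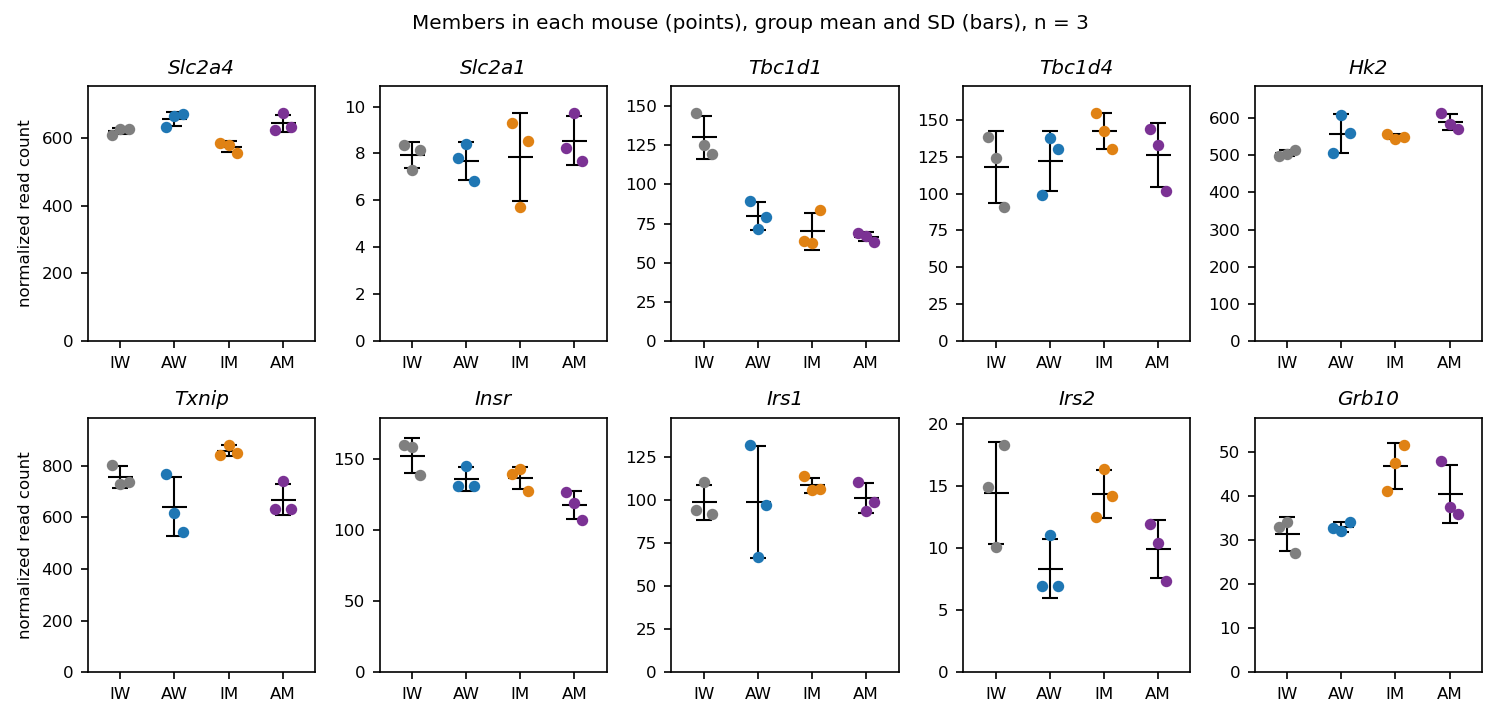
Normalized read count of each member (vertical axes start at 0) in the 3 mice of each group (points), with the group mean and SD (black bars). Tbc1d1 is high only in IW, and Grb10 is higher in both myostatin-reduced groups than in either wild-type group.

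**Figure D3:**
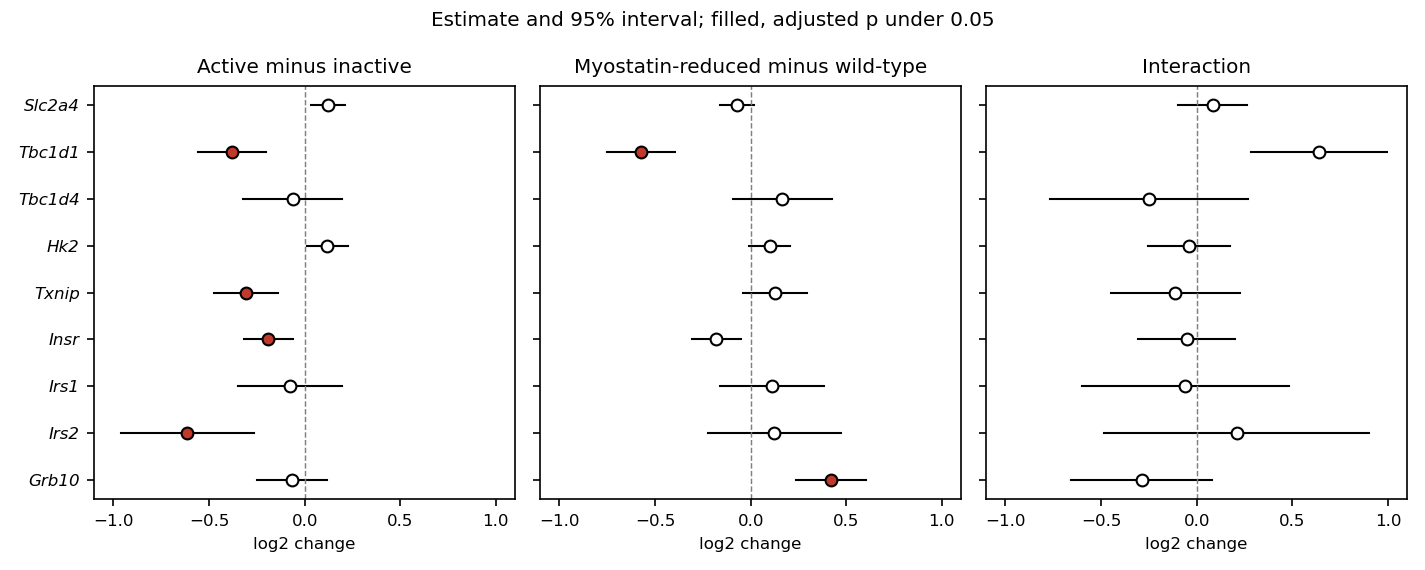
Log2 change of the 9 tested members with activity, genotype and their interaction (points), with the 95% interval (lines). Filled points passed an adjusted p of 0.05 in limma, which was reached by 4 members with activity, 2 with genotype and 0 in the interaction.

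Slc2a4 (chr11:69756045-69761690, minus strand, mm9), which encodes the GLUT4 carrier, measured 611, 627 and 627 normalized reads in IW, 586, 581 and 556 in IM, 635, 665 and 672 in AW and 625, 674 and 633 in AM. Active mice were above inactive mice of the same genotype without overlap, by 5.74% in wild-type and 12.1% in myostatin-reduced mice. It was the only member without such overlap in both genotypes, as were 7.81% of all tested genes. The activity change of 0.12 (95% interval 0.03 to 0.21) did not pass (limma, adjusted p = 0.0652), although it passed without AW 1 (adjusted p = 0.0449), with array weights (0.0305) and with only genes of a mean of at least 50 tested (0.0418). Slc2a4 was higher in AW than in IM by 0.19 on the log2 scale (limma, adjusted p = 0.0361, against 18.7% of genes called for that pair). The 1353 genes called between AW and IM fell to 553 without AW 3, 643 without AW 2, 651 without IM 3, 849 without IM 1 and 890 without IM 2. That call of Slc2a4 was lost without any one of the 3 IM mice, AW 2 or AW 3. It was also lost with the slow-fibre covariate, with the spread of the pair alone and with replicate number as a block. The genotype change was -0.07 (limma, adjusted p = 0.332).

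Slc2a1 (chr4:118781316-118809935, plus strand), encoding GLUT1, the carrier of basal glucose uptake that is also strong in endothelium, was low in every mouse. Its counts were 8.36, 7.29 and 8.14 in IW, 9.28, 5.73 and 8.54 in IM, 7.79, 8.40 and 6.82 in AW and 8.23, 9.71 and 7.69 in AM. All groups overlapped. The difference was 0.04 on the log2 scale with activity (exact permutation test, two-sided p = 0.78) and 0.05 with genotype (exact permutation test, two-sided p = 0.67), where the smallest p the 400 arrangements allow is 0.005.

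Tbc1d1 (chr5:64550690-64742725, plus strand), a Rab GTPase-activating protein that contraction regulates through AMPK, had the largest absolute log2 change with genotype among the 9 tested members. It had 145, 126 and 120 normalized reads in IW, 64.0, 62.7 and 83.5 in IM, 89.2, 71.3 and 79.4 in AW and 69.2, 67.3 and 63.5 in AM. All 3 IW mice were above all 9 others. The mean was 46.2% lower in IM than in IW, 38.6% lower in AW than in IW and 48.8% lower in AM than in IW. Tbc1d1 fell by 0.57 on the log2 scale with genotype (SE 0.0820, limma, adjusted p = 0.00263) and by 0.38 with activity (SE 0.0820, limma, adjusted p = 0.0109). Neither call was lost when any one mouse was left out. Between pairs it was lower in IM than in IW by -0.89 (limma, adjusted p = 0.00283, with 2.51% of genes called) and in AM than in IW by -0.95 (limma, adjusted p = 0.00161, with 2.97% called). In AW against IW the change of -0.70 had an adjusted p of 0.0611 (limma), where 0.0276% of genes were called. These shares moved with single mice, the 182 genes called between IM and IW falling to 23 without IW 1, 25 without IM 1, 32 without IM 3, 40 without IM 2, 47 without IW 3 and 96 without AW 3. The 215 called between AM and IW fell to 58 without IW 2, 62 without AM 2, 69 without IW 1, 130 without AM 3 and 134 without IM 1. The 2 called between AW and IW became 198 without AW 1. Outside IW the groups were closer, AM being 4.83% below IM with overlap and 16.6% below AW without it. The interaction was estimated at 0.64 on the log2 scale and did not pass (SE 0.164, limma, adjusted p = 0.890). Its sign is that of changes of genotype and activity that combine to less than their sum.

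Tbc1d4 (chr14:101841577-102008408, minus strand), the insulin-regulated relative also called AS160, was not called in any contrast. It had 138, 124 and 90.8 normalized reads in IW, 154, 143 and 130 in IM, 99.2, 137 and 130 in AW and 143, 133 and 101 in AM, and every pair of groups overlapped. The activity change was -0.06 (95% interval -0.32 to 0.20, limma, adjusted p = 0.753) and the genotype change 0.17 (95% interval -0.09 to 0.42, limma, adjusted p = 0.445). The difference between the changes of Tbc1d4 and Tbc1d1 was not tested.

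Hk2 (chr6:82675019-82724448, minus strand), the insulin-responsive hexokinase of muscle that phosphorylates glucose on entry, had 499, 504 and 515 normalized reads in IW, 558, 543 and 551 in IM, 507, 610 and 560 in AW and 613, 584 and 571 in AM. The 3 IW mice and the 3 IM mice did not overlap, and neither did the IM and AM mice, whereas AW spread across both. How many of all tested genes were separated in these ways was not counted. The change was 0.12 with activity (95% interval 0.01 to 0.23, limma, adjusted p = 0.126) and 0.10 with genotype (95% interval -0.01 to 0.21, limma, adjusted p = 0.253). Leaving out AW 1, the lowest AW mouse, brought the activity change to 0.15 (limma, adjusted p = 0.0299), and array weights brought it to 0.14 (limma, adjusted p = 0.0462).

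Txnip (chr3:96361880-96365806, plus strand) encodes thioredoxin-interacting protein, an arrestin-like protein that restrains glucose uptake by drawing glucose carriers from the surface and whose transcription glucose induces. The RefSeq promoter is shown because a carbohydrate response element and a forkhead site are known motifs of this gene, and Txnip was among the members called with activity. The 250 bases upstream of its start lie at chr3:96557707-96557956, plus strand, GRCm38.p6, and the capitals mark GTAAACA and a pair of CACGNG boxes with 5 bases between them.
Txnip: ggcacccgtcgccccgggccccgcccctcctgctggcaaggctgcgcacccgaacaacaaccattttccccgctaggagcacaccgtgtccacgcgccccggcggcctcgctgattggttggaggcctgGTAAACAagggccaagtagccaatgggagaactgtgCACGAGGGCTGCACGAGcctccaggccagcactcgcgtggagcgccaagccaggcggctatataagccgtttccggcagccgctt
The spaced pair began 85 bases before the start and GTAAACA 121 bases before it. Searched on both strands, the spaced pair occurred in 15 of 32851 upstream windows (0.0457%) and GTAAACA in 3.17% of them. The boxes within the pair are also single CACGNG matches, of which the window held 4. A match is a description of these letters only.

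Normalized read counts of Txnip were 803, 727 and 736 in IW, 840, 881 and 851 in IM, 766, 615 and 542 in AW and 634, 740 and 633 in AM. The IM mice were above all 9 others, the AM mice were below the IM mice without overlap, and AW overlapped IW through AW 1. Txnip fell by 0.31 on the log2 scale with activity (SE 0.0775, limma, adjusted p = 0.0217), a mean 18.8% lower. The call was lost without IM 2 (adjusted p = 0.0518), AW 2 (0.0559) or AW 3 (0.0531) in limma. With the slow-fibre score as a covariate the change was -0.28 (limma, adjusted p = 0.0855). Among pairs Txnip was lower in AW than in IM by -0.43 (limma, adjusted p = 0.0175), lost without IM 2, IM 3, AW 2 or AW 3 or with the slow-fibre covariate, and the change from IM to AM was -0.36 (limma, adjusted p = 0.0623, with 7.84% of genes called). The genotype change was 0.13 (limma, adjusted p = 0.360). The Txnip exons overlap those of Gm15441 on the opposite strand by 606 bases, and whether strand was used in counting was not stated.

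Insr (chr8:3150922-3279617, minus strand), the insulin receptor, was lowest in AM. It had 160, 159 and 139 normalized reads in IW, 140, 143 and 128 in IM, 131, 145 and 131 in AW and 127, 119 and 107 in AM. The AM mice were below the mice of each other group without overlap, by 22.8% against IW, 13.9% against IM and 13.4% against AW. Insr fell by 0.19 on the log2 scale with activity (SE 0.0590, limma, adjusted p = 0.0489). That value lay just under the threshold and the call was lost when any one of 10 of the 12 mice was left out, all but IW 3 and AM 1 (limma, adjusted p = 0.0280 to 0.117 over all 12 such fits). It was also lost in 5 of 10 other settings, with changes of -0.14 under quantile normalization (adjusted p = 0.153), -0.18 under median-of-ratios rescaling (0.0673), -0.19 with no filter (0.0558) or no trend (0.0647) and -0.23 with the slow-fibre covariate (0.0622), all in limma. Insr was lower in AM than in IW by -0.37 (limma, adjusted p = 0.0352), and that was lost without IW 1, IW 2, IM 1, IM 2, AW 3, AM 2 or AM 3, with quantile normalization and with the spread of the pair alone. The genotype change was -0.18 (limma, adjusted p = 0.0957).

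The adaptors IRS1 and IRS2 carry the signal from the receptor to PI3-kinase. Their 250-base upstream windows are shown because both hold CACGTG, an E-box, and Irs2 was among the members called with activity. The difference between the changes of Irs1 and Irs2 was not tested. Irs1 lies at chr1:82229676-82287991 and Irs2 at chr8:10986980-11008458 in mm9, both on the minus strand. The windows, in GRCm38.p6, are chr1:82291440-82291689 and chr8:11008930-11009179, minus strand, with CACGTG in capitals.
Irs1: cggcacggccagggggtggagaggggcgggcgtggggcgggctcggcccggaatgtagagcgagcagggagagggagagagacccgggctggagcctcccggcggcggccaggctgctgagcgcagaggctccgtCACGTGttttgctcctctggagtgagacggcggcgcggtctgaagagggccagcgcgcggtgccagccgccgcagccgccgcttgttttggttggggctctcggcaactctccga
Irs2: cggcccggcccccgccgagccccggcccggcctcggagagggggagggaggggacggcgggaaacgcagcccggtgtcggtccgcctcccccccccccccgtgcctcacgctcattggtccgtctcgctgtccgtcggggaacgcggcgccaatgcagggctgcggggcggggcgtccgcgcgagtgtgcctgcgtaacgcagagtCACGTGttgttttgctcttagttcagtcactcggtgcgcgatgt
CACGTG began 115 bases before the Irs1 start and 44 bases before that of Irs2, and was found in 6.02% of all upstream windows. CACGTG is also a case of CACGNG, which 23.5% of windows held. Of the members 8 had an entry in the RefSeq set, and among those 8 CACGTG was matched only in Irs1 and Irs2.

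Irs1 had 94.2, 111 and 91.9 normalized reads in IW, 114, 106 and 107 in IM, 132, 67.3 and 97.3 in AW and 111, 94.0 and 99.3 in AM. AW held both the highest and the lowest mouse. The activity change was -0.08 (95% interval -0.35 to 0.20, limma, adjusted p = 0.716) and the genotype change 0.11 (95% interval -0.16 to 0.38, limma, adjusted p = 0.644). The sign of the activity change turned to 0.05 without AW 2 and to 0.08 with the slow-fibre score as a covariate, so no direction can be given. Between AW and IM the change of Irs1 was -0.19 (limma, adjusted p = 0.497), and without AW 1 it was -0.42 and passed (limma, adjusted p = 0.0424). The Irs1 exons overlap those of Gm9747 on the opposite strand by 2822 bases.

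Irs2 had 14.9, 10.2 and 18.4 normalized reads in IW, 12.5, 16.4 and 14.2 in IM, 7.01, 11.1 and 6.98 in AW and 12.0, 10.4 and 7.40 in AM. Inactive mice were between 10.2 and 18.4 and active mice between 6.98 and 12.0, with overlap through IW 2. Irs2 fell by 0.61 on the log2 scale with activity (SE 0.160, limma, adjusted p = 0.0243), a mean 36.6% lower, and the change was -0.72 in wild-type and -0.51 in myostatin-reduced mice. The call was lost without IW 3 (adjusted p = 0.0544), IM 2 (0.0603), IM 3 (0.0518) or AW 3 (0.0682) in limma. Irs2 was lower in AW than in IM by -0.74 (limma, adjusted p = 0.0387), lost without any one IM mouse, AW 1 or AW 3 or with replicate number as a block. With genotype the change was 0.12 (limma, adjusted p = 0.699). The Irs2 exons overlap those of 9530052E02Rik on the opposite strand by 162 bases.

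Grb10 (chr11:11830511-11938686, minus strand) encodes an adaptor that binds the insulin receptor and inhibits its signalling. It had 33.1, 34.1 and 27.0 normalized reads in IW, 41.3, 47.7 and 51.7 in IM, 32.8, 32.1 and 34.2 in AW and 48.0, 37.5 and 36.1 in AM. All 6 myostatin-reduced mice were above all 6 wild-type mice, a mean 35.7% higher, and Grb10 rose by 0.42 on the log2 scale (SE 0.0846, limma, adjusted p = 0.0146). The call held when any one mouse was left out (limma, adjusted p = 0.0163 to 0.0433). With activity the change was -0.07 (95% interval -0.25 to 0.12, limma, adjusted p = 0.621). Tbc1d1 and Grb10 were the 2 members in which the genotypes did not overlap within either activity level, as held for 5.37% of genes. Between pairs, Grb10 was higher in IM than in IW by 0.56 (limma, adjusted p = 0.0345). That was lost without IW 1, IW 3, any IM mouse or AW 3 and with replicate number as a block. Grb10 was lower in AW than in IM by -0.49 (limma, adjusted p = 0.0152), lost without IM 3 or AW 2 or with the slow-fibre covariate. The changes of Grb10 from AW to AM, 0.28, and from IW to AM, 0.35, did not pass (limma, adjusted p = 0.377 and 0.130).

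Between AM and AW limma called 0 members and 0.207% of genes, with Tbc1d1, Insr and Grb10 under an unadjusted p of 0.05, as were 12.3% of genes. The 15 genes called there became 4 to 9 without any one of the 3 AM mice, AW 2, AW 3 or IM 1. Between AW and IW it called 0 members and 0.0276% of genes, with Tbc1d1, Txnip and Irs2 under 0.05 unadjusted, as were 14.7% of genes. Between AM and IM it called 0 members and 7.84% of genes, with Txnip, Insr, Irs2 and Slc2a4 under 0.05 unadjusted, as were 26.2% of genes. The 568 genes called between AM and IM became 85 without AM 2, 118 without IM 3, 142 without IM 2, 219 without IM 1 and 1098 without AM 1. In the moderated F test over the 4 group means, those called were Tbc1d1, Insr and Grb10 (limma, adjusted p = 0.00250, 0.0473 and 0.0214), against 13.7% of genes. The 995 genes called in that test fell to 373 without IM 3, 493 without IM 2, 496 without IM 1, 513 without AW 3 and 537 without AW 2. The Insr call was lost with no filter, median-of-ratios rescaling, quantile normalization and no trend, and when any one mouse but IW 3, AW 1 or AM 1 was left out, and the Grb10 call was lost without IM 2 or IM 3. The contrasts share groups and are not independent of each other.

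The slow-fibre score, the mean log2 deviation of the 11 slow-fibre markers, was -2.23 to -1.39 in IM and spread from -1.96 to 1.96 in IW, -1.02 to 2.49 in AW and -1.63 to 2.06 in AM. All 11 slow-fibre markers had a positive log2 change with activity (median 1.80, against -0.02 over all tested genes) and all 11 a negative one with genotype (median -1.30, against -0.0049), and 1 of 11 was called with activity and 0 with genotype. Of the 10 fast-fibre markers 5 were called with activity (limma). Myh1 and Myh2, the myosins of the IIX and IIA fast fibres, rose by 1.51 and 2.04 on the log2 scale, while Myh4, the IIB myosin, fell by 0.57, Actn3 by 0.49 and Atp2a1 by 0.30. With genotype Actn3 alone was called, higher by 0.47. The summed fast-fibre markers were 225318 to 234174 in IM, above every mouse of the other groups, and 154915 to 187464 in AW. With the score as a covariate, Tbc1d1 was still called for activity (limma, adjusted p = 0.0415) and genotype (0.00591), Irs2 for activity (0.00908) and Grb10 for genotype (0.0211). Txnip and Insr were not called for activity (0.0855 and 0.0622), with log2 changes of -0.28 and -0.23 beside -0.31 and -0.19 without the covariate. Over all tested genes 401 were called for activity with the covariate, beside 1051 without it. Between AW and IM, Irs2 was called (0.0201), with a log2 change of -1.12 beside -0.74 without the covariate. Slc2a4, Txnip and Grb10 were not (0.172, 0.117 and 0.0682), with log2 changes of 0.16, -0.39 and -0.53 beside 0.19, -0.43 and -0.49 without the covariate. Whether fibre type or endothelial content had a part in any of these changes was not tested beyond that covariate.

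**Figure D4:**
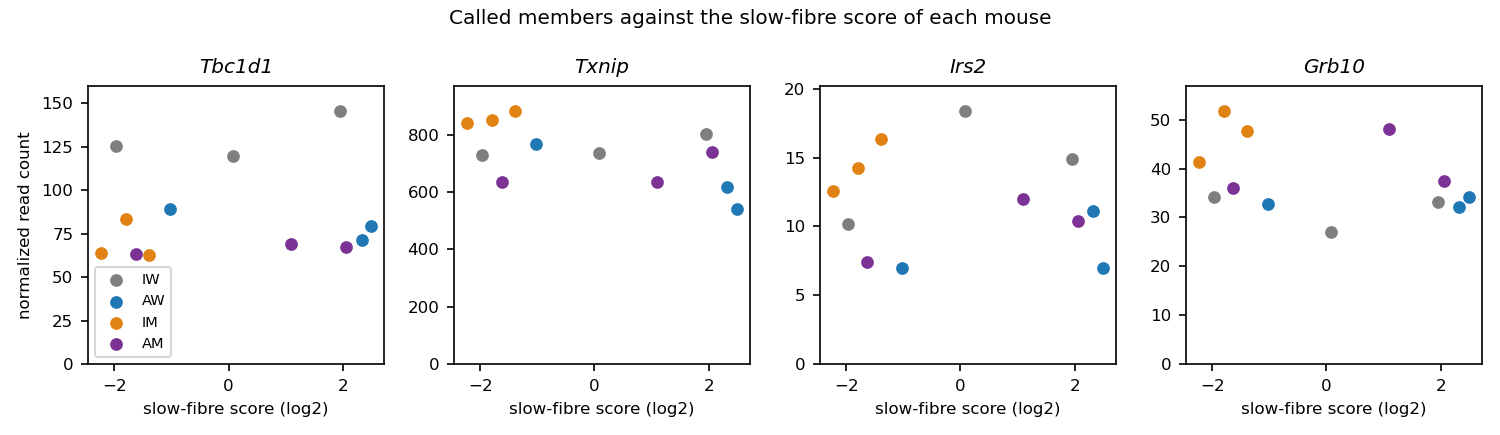
Normalized read count of Tbc1d1, Txnip, Irs2 and Grb10 against the slow-fibre score (log2) of each mouse, coloured by group. Tbc1d1 is near its low level in mice of both low and high score outside IW, and the 3 IM mice all sit at low scores.

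The rest of the pathway was described from 4 lists of 87 genes in all, of which 74 were in the table and 66 were tested. With activity 3 of the 66 were higher and 4 lower (10.6%, beside 14.5% of all tested genes), and with genotype 4 were higher and 2 lower (9.09%, beside 5.78%). The counts by list that follow are to be read against the same shares. The medians were -0.04 and 0.02 on the log2 scale, beside -0.02 and -0.0049 for all tested genes. The interaction called 0 of the 66 in limma, and 3 had an unadjusted p under 0.05, beside 4.10% of all tested genes. Calls of single pathway genes were read from the main fit of all mice only. Whether they hold with a mouse left out or with the slow-fibre covariate was not examined.

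**Figure D5:**
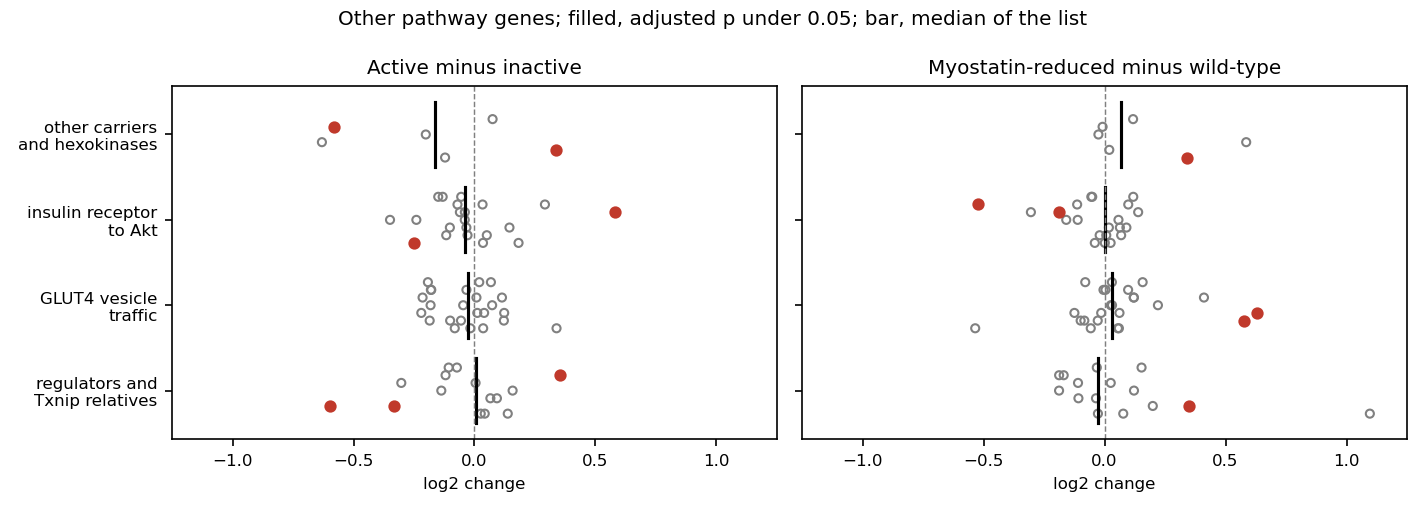
Log2 change with activity and genotype of the other pathway genes, by list (points, filled where the adjusted p was under 0.05 in limma), with the median of each list as a bar. Called genes lie on both sides of 0 in both contrasts.

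Among other glucose carriers and enzymes of glucose handling, 2 of 6 changed with activity. Slc2a3, the high-affinity carrier GLUT3, had 26.8, 33.0 and 29.0 normalized reads in IW and 34.6, 31.5 and 30.4 in IM against 28.0, 17.2 and 19.8 in AW and 19.5, 15.6 and 23.4 in AM. It fell by 0.58 on the log2 scale with activity (limma, adjusted p = 0.00748). Pfkfb1, which makes fructose-2,6-bisphosphate, the activator of phosphofructokinase, rose by 0.34 (limma, adjusted p = 0.00441). Gpi1, glucose-6-phosphate isomerase, rose with genotype by 0.34 (limma, adjusted p = 0.0168).

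Of the 21 tested genes from receptor to Akt, 1 rose and 1 fell with activity and 2 fell with genotype. Grb14, an adaptor of the Grb10 family that likewise inhibits the receptor, rose by 0.58 with activity (limma, adjusted p = 0.0238). Gsk3b, a glycogen synthase kinase-3 and the seventh called gene by size, named here after its value was seen, fell by 0.25 (limma, adjusted p = 0.0169). The PI3-kinase catalytic subunits Pik3cb and Pik3ca fell with genotype by 0.52 (limma, adjusted p = 0.0170) and 0.19 (limma, adjusted p = 0.0472). The Pik3ca value lay just under the threshold.

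Of the 24 tested genes of GLUT4 vesicle traffic, 0 were called with activity by limma and 2 rose with genotype. At an unadjusted p under 0.05 with activity there were 5 of the 24, beside 30.2% of all tested genes, and with genotype 7 of the 24, beside 22.5%. Sort1, encoding sortilin, a sorting receptor of GLUT4 vesicles, had 139, 190 and 169 normalized reads in IW and 189, 155 and 138 in AW against 270, 275 and 268 in IM and 242, 181 and 230 in AM. It rose by 0.57 on the log2 scale with genotype (limma, adjusted p = 0.00676). Exoc7, a subunit of the exocyst that tethers vesicles at the surface, rose by 0.63 (limma, adjusted p = 0.0181).

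Of the 15 tested regulators of Slc2a4 or Txnip transcription and relatives of Txnip, 1 rose and 2 fell with activity and 1 rose with genotype. Arrdc3, an arrestin-like relative of Txnip, had 55.5, 47.4 and 45.6 normalized reads in IW and 62.8, 73.8 and 50.5 in IM against 42.2, 27.6 and 36.9 in AW and 37.7, 40.5 and 33.6 in AM. No active mouse reached any inactive mouse, and Arrdc3 fell by 0.60 (limma, adjusted p = 0.00483). Mlxip, which encodes MondoA, a glucose-sensing factor that binds carbohydrate response elements, fell by 0.33 with activity (limma, adjusted p = 0.0164) and rose by 0.35 with genotype (limma, adjusted p = 0.0250). Txn2, the mitochondrial thioredoxin, rose by 0.35 with activity (limma, adjusted p = 0.00225).

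The genes whose deviations over the 12 mice lay nearest to those of each member called with activity or genotype were found by the root mean square difference on the log2 scale. For Tbc1d1 they were D0H4S114 at 0.210, Mdga1 at 0.219 and Hbegf at 0.221, against an SD of Tbc1d1 itself of 0.418. For Txnip (SD 0.216) they were Gm16515 at 0.0802, Flywch1 at 0.101 and Timp2 at 0.105. For Grb10 (SD 0.273) they were Maob at 0.0983, Mthfd1 at 0.113 and Ext2 at 0.117. For Insr (SD 0.163) they were Gcap14 at 0.0607, Golga4 at 0.0650 and Limch1 at 0.0691. For Irs2 (SD 0.431) they were Ddi2 at 0.231, Klf4 at 0.279 and Ankrd12 at 0.283. Each distance is to be read against the SD of its member.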

How the data were processed

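Polyadenylated RNA was read from one end by the authors, who mapped reads with CASAVA (version not given in the sources used here) to mm9, counted reads in RefSeq exons and summed them to genes. The deposited unit is a signal, a read count that the authors scaled to an equal trimmed mean in all samples, not divided by gene length. The labels gave the groups, and no column was left out.

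The spacing of low values, 0.0770 to 0.105, gave the worth of 1 read and so the depth. A floor of 3 reads was thus 0.231 to 0.316 and covers counting error only. Whole multiples of this spacing, within 0.0055, made up 88.8% to 91.2% of values under 5 but 68.1% to 69.6% of those from 20 to 50 (chance, 10.4% to 14.3%), so no test of read counts was run.

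Genes with a mean of at least 10 were tested with limma 3.58.1 in R 4.3.3 (lmFit, contrasts.fit, eBayes with trend) on log2(value + 1), which understates changes of low genes. The model had 4 group means over all 12 mice, and two-sided p-values were adjusted by Benjamini-Hochberg over 7247 genes. Slc2a1, below the filter, had an exact permutation test within levels of the other factor. Named genes were the members, Mstn, up to 6 called pathway genes per contrast with the largest absolute log2 change, and 3 nearest genes per called member. Members and lists were chosen with earlier results of these data known. Alternatives were other pseudocounts, filters, scalings, weights, a replicate block, a slow-fibre covariate and leaving out each mouse.

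Positions and exon lengths are from the GENCODE annotation of mm9 and promoters from RefSeq (GRCm38.p6), read by symbol. The labels give no batch or date. Pairwise changes are first group minus second as worded.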

Additional observations from a re-analysis of the deposited data

Results flagged for a closer look

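The change of Tbc1d1 with activity differed between genotypes, by 0.64 on the log2 scale (SE 0.164, 95% interval 0.28 to 0.99). It was -0.70 in wild-type mice and -0.06 in myostatin-reduced mice. It was noted because the unadjusted test of the difference itself passed, and it did not pass adjustment over all genes (limma, adjusted p = 0.890). Over the settings that left out 1 mouse it was 0.56 to 0.77.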

How the results depend on the processing

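For the 9 tested members (so without Slc2a1), the activity, genotype and interaction changes and the pairwise changes called with all mice gave 769 alternative values, of which 755 kept their direction, 61 of these no longer passing and 6 newly passing, and 14 reversed. Other pairwise changes are not in these counts. The slow-fibre covariate called 2 members for activity (Tbc1d1 and Irs2) and 401 genes in all, and turned Irs1 to 0.085 with activity, -0.0033 with genotype and 0.038 in the interaction. Array weights called 6 members and 1740 genes for activity. In the F test they called 5 members and 2013 genes, beside 3 and 995 in the main fit, and Irs1 turned to 0.064 in the interaction. A mean of at least 50, which left out Grb10 and Irs2, called 1 member and 272 of 2556 genes for genotype. It called 1 member and 147 genes in IM against IW, and 2 and 857 in AW against IM. Tbc1d1 was the 1 member called in AW against IW with that filter (39 genes called), array weights (415 of 7247) or the covariate (28). Txnip was the 1 member called in AM against IM with that filter (518 genes), array weights (931) or the spread of the pair alone (536). In the main fit these pairs called 2 and 568 genes. AW against IM called 1 member (Irs2) and 338 genes with the covariate, beside 1353 genes in the main fit. AM against IW called 1 member (Tbc1d1) with quantile normalization (202 genes) or the spread of the pair alone (38), beside 215 genes in the main fit. The cause was not tested.

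Same-numbered mice were not paired (correlations of deviations -0.605 to 0.484 over 18 pairs, 9 over 0.1). With the replicate block 1 member and 98 genes were called in IM against IW, Grb10 being lost. In AW against IM 2 members and 1341 genes were called, Slc2a4 and Irs2 being lost. Insr passed for genotype (limma, adjusted p = 0.0486), where 364 genes were called. The main fit called 182, 1353 and 419 genes in these.

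With 1 mouse left out, called members were 1 to 5 for activity (1 without IM 2 or AW 3, and 2 without IM 3 or AW 2), 2 for genotype, 0 in the interaction, 0 to 2 in AW against IW (Tbc1d1 without AW 1 or IM 3, and Txnip without AW 1), 0 to 1 in AM against IM (Txnip, without AW 1 or AW 3), 1 to 2 in IM against IW, 0 in AM against AW, 0 to 4 in AW against IM, 1 to 2 in AM against IW and 1 to 4 in the F test. All genes called were 552 to 1485 for activity, 180 to 579 for genotype, 0 to 1 for the interaction, 23 to 216 in IM against IW, 58 to 309 in AM against IW, 0 to 198 in AW against IW, 85 to 1098 in AM against IM, 4 to 15 in AM against AW, 553 to 1643 in AW against IM and 373 to 1329 in the F test. Signs turned within -0.15 to 0.011 for Tbc1d4 and -0.19 to 0.049 for Irs1 with activity, -0.011 to 0.23 for Irs1 with genotype, and -0.052 to 0.10 and -0.0087 to 0.14 for Slc2a1 with activity and genotype. In the interaction they turned within -0.11 to 0.024 for Hk2, -0.11 to 0.014 for Insr, -0.31 to 0.18 for Irs1 and -0.22 to 0.024 for Txnip.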
